A study of Mus musculus with 9 samples.

Results

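The H19-Igf2 gene pair and the genes of insulin-like growth factor (IGF) signalling were examined in RNA sequencing of embryonic mouse hearts. The 8 genes were taken by symbol from the table of 24571 usable symbols: *H19*, *Igf2*, *Igf1*, *Igf1r*, *Igf2r*, *Igf2bp1*, *Igf2bp2* and *Igf2bp3*. All 8 were listed, and all 8 passed the filter on low values (averaging 1 TPM or more over the 9 libraries) that left 13682 genes for testing. The hearts came from E18.5 embryos of C57BL/6N mice, and the groups differed in the *Ctcf* R567W allele, a missense change made by CRISPR/Cas9 editing and carried by the mouse line, not confined to heart cells. Wild-type embryos had no mutant copy, heterozygous embryos had 1 and homozygous embryos had no wild-type copy, with 3 libraries in each group. The sources used here do not say whether the libraries came from separate litters, and p-values measure only the spread between these libraries.

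IGF2 and IGF1 are secreted growth factors that act through the receptor tyrosine kinase IGF1R, while IGF2R, the cation-independent mannose 6-phosphate receptor, takes IGF2 to the lysosome. *Igf2* and *H19* lie next to each other and are imprinted: *Igf2* is expressed from the paternal and *H19* from the maternal chromosome, and CTCF bound to the unmethylated maternal control region between them insulates *Igf2* from enhancers that lie beyond *H19*. *H19* gives a long non-coding RNA. *Igf2r* is imprinted in the mouse too, and the antisense RNA *Airn* silences its paternal copy. *Igf2bp1*, *Igf2bp2* and *Igf2bp3* encode RNA-binding proteins named for their binding to *Igf2* mRNA. The question for these genes was whether their RNA, and the balance of *H19* to *Igf2*, differed between the *Ctcf* genotypes.

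On GRCm38, *H19* (ENSMUSG00000000031.16) spans chr7:142575529-142578143 on the minus strand and *Igf2* (ENSMUSG00000048583.16) spans chr7:142650766-142666816 on the same strand. Their 5′ ends are 88673 bases apart. Each gene carries a microRNA hairpin, Mir675 within *H19* and Mir483 within *Igf2*. Their mature sequences, from RefSeq on GRCm38.p6, are shown because they are the small RNAs made from the transcripts measured here. Seeds (bases 2 to 8) are in capitals.
mmu-miR-675-5p: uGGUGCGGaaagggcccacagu
mmu-miR-675-3p: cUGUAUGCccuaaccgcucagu
mmu-miR-483-5p: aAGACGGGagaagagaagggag
mmu-miR-483-3p: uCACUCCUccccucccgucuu
The 4 seeds are all different, and none is shared with another of the 1738 mature mouse sequences in the table. The libraries were made from poly-A RNA, so the levels below are those of the host transcripts and not of the microRNAs.

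Of the upstream sequences, those of *Igf2* and *Igf2r* are shown because both genes are imprinted and lie beside an RNA of the opposite strand. The 250 bases before the outermost *Igf2* start, chr7:142666817-142667066 on the minus strand, hold no GC box (GGGCGG, searched on both strands). Of the 3 windows before the other *Igf2* starts, not shown, 1 holds none, 1 holds 1 and 1 holds 2. The 250 bases before the *Igf2r* start, chr17:12769707-12769956 on the minus strand, hold 3, in capitals. The box was found in 32.7% of the 32851 windows of this length (RefSeq, GRCm38.p6).
Igf2: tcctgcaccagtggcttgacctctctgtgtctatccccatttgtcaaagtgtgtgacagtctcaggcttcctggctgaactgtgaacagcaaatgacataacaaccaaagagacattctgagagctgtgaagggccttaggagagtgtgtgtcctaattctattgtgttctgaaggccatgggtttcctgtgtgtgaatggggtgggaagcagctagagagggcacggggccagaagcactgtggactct
Igf2r: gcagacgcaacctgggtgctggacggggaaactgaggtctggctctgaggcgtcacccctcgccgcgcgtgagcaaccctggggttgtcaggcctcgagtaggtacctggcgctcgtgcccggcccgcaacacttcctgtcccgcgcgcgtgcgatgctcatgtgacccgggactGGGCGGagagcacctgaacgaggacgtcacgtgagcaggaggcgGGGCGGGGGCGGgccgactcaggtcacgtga

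Expression was given as TPM (transcript abundance per length, with every library brought to the same total), so the depth and counting error are unknown. Libraries differed in markers of other tissues. Homozygous replicate 3 had a summed level of 15 thymocyte markers of 770.8 TPM with none of them at 0, while the other 8 had sums of 2.61 to 5.64 TPM. It also had the lowest sums of cardiomyocyte markers (26045 TPM, against 33705 to 38254) and of fibroblast and epicardial markers (777 TPM, against 991 to 1684). Heterozygous replicate 1 had a liver marker sum of 4244 TPM, against 31.4 to 172 elsewhere. The airway and lung marker sum was 3621 TPM in wild-type replicate 1 and 1633 in heterozygous replicate 1, against 0.64 to 76.5 elsewhere. Erythroid marker sums ran from 1693 TPM in wild-type replicate 3 to 9393 in heterozygous replicate 1. All 9 cardiomyocyte markers exceeded 1 TPM in each of the 9 libraries. The part of these markers in the results was not tested, and in bulk tissue fewer cells of a type and less RNA per cell cannot be told apart. *Xist*, an RNA of female cells, was at 113.99, 146.42 and 111.91 TPM in heterozygous hearts. It was at 87.84, 0.02 and 0.05 TPM in wild-type and 123.03, 0.05 and 0.04 in homozygous hearts. Heterozygous hearts thus differed in *Xist* as well as in genotype from both wild-type and homozygous hearts, and the main test had no covariate for it.

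*Ctcf* mRNA itself was at 27.01, 28.95 and 34.29 TPM in wild-type, 33.76, 33.15 and 38.65 in heterozygous, and 38.89, 41.38 and 50.22 in homozygous hearts. The homozygous libraries lay above the wild-type ones, as in 22.3% of all genes, and above the heterozygous ones, as in 12%. The log2 difference from wild-type of 0.52 ± 0.14 (SE) did not pass (limma, adjusted p = 0.107). A missense allele leaves the mRNA in place, so this level does not check the genotype labels.

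Among the 8 genes, *H19* and *Igf2* were the most abundant by far. *H19* ranked between 29 and 46 and *Igf2* between 36 and 73 among all symbols of a library, and together they made up 0.305% to 0.531% of a library's TPM. Averaged over the libraries, the order was *H19*, *Igf2*, *Igf2r*, *Igf2bp2*, *Igf1r*, *Igf2bp3*, *Igf1* and *Igf2bp1*. *H19* was above *Igf2*, *Igf2* above *Igf2r*, *Igf2r* above *Igf2bp2*, *Igf2bp2* above *Igf1r*, and *Igf1* above *Igf2bp1* in 9 of 9 libraries each. *Igf1r* was above *Igf2bp3* in 7 of 9 and *Igf2bp3* above *Igf1* in 5 of 9, so these 3 genes were not ordered beyond their spread. The order of *H19* and *Igf2* rests on an *Igf2* level that is uncertain, as described below.

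*H19* was at 2034, 1975 and 2070 TPM in wild-type replicates 1 to 3. It was at 2800, 2300 and 2414 TPM in heterozygous hearts. In homozygous hearts it was at 2970, 2946 and 1801 TPM, so that replicates 1 and 2 were the highest of the 9 libraries and replicate 3 the lowest. Group means were 2026 ± 48.1, 2505 ± 262 and 2572 ± 668 TPM (SD, n = 3). The heterozygous libraries were all above the wild-type libraries, while the homozygous group overlapped both others.

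*Igf2*, the more abundant of the 2 ligands, was at 1498, 1421 and 1572 TPM in wild-type hearts. It was at 1927, 1748 and 1848 TPM in heterozygous hearts. In homozygous hearts it was at 2217, 2358 and 1240 TPM. The order was that of *H19*: heterozygous libraries above wild-type ones without overlap, homozygous replicates 1 and 2 highest, homozygous replicate 3 lowest. *Igf2* overlaps the antisense gene *Igf2os*, which was at 5.22 to 10.09 TPM, and shares 61.9% of its 31-base words with Gm49394, a gene model on the same strand that is not analysed here. How reads were divided there, and whether strand was used, is not given in the sources used here, so the absolute level of *Igf2* is uncertain.

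**Figure D1:**
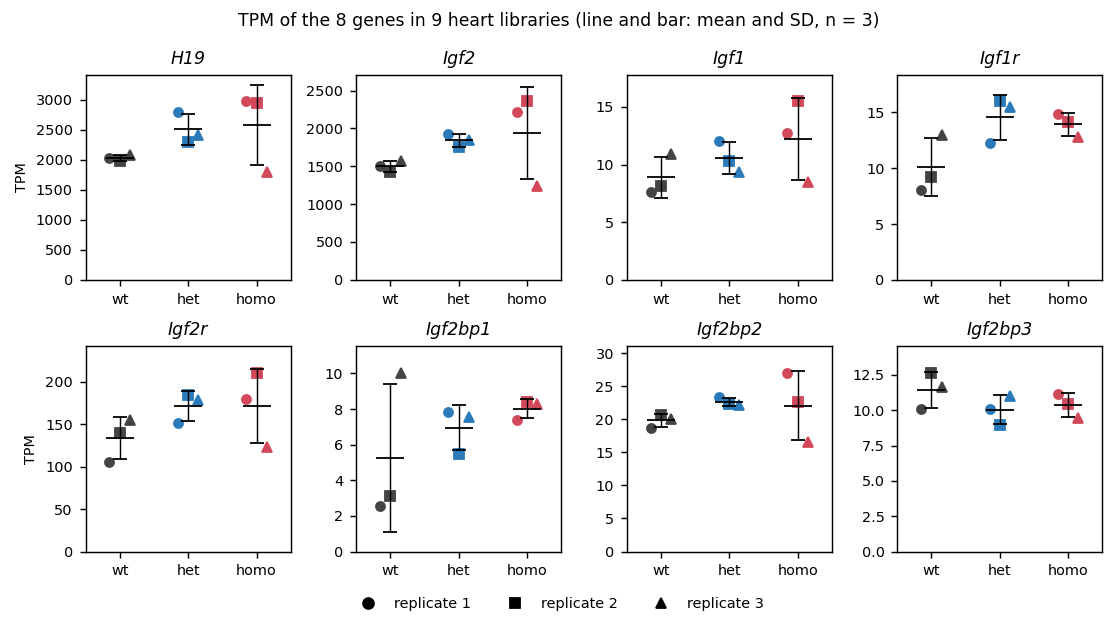
TPM of the 8 genes in the 9 heart libraries, with wild-type (wt, grey), heterozygous (het, blue) and homozygous (homo, red) on the x axis; symbols mark replicates, and the line and bar give the mean and SD of 3 libraries. In 7 of 8 genes, all but *Igf2bp1*, homozygous replicate 3 is below the other 2 homozygous libraries.

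The other ligand, *Igf1*, was far lower. It was at 7.66, 8.11 and 10.93 TPM in wild-type, 12.06, 10.27 and 9.38 in heterozygous, and 12.71, 15.49 and 8.47 in homozygous hearts. The groups overlapped. The TPM of *Igf1* was between 0.0051 and 0.0070 of that of *Igf2* in the same library.

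Of the receptors, *Igf1r* was at 8.02, 9.23 and 13 TPM in wild-type, 12.24, 16 and 15.46 in heterozygous, and 14.82, 14.18 and 12.82 in homozygous hearts. Wild-type replicate 3 lay within the other groups, and the other 2 wild-type libraries lay below all mutant ones. *Igf2r* was at 106.06, 140.13 and 155.41 TPM in wild-type, 152.01, 185.09 and 179.15 in heterozygous, and 180.38, 210.5 and 123.74 in homozygous hearts. All 3 groups overlapped. *Igf2r* overlaps *Airn* on the opposite strand, which was at 47.01 to 69.15 TPM, and the 2 cannot be told apart where strand was not used.

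The 3 RNA-binding protein genes differed in how they varied. *Igf2bp1*, expressed mainly before birth, was at 2.57, 3.14 and 10.02 TPM in wild-type, 7.85, 5.49 and 7.53 in heterozygous, and 7.41, 8.39 and 8.28 in homozygous hearts. Wild-type replicate 3 was the highest of the 9 libraries and the other 2 wild-type libraries the lowest. *Igf2bp2* was at 18.73, 20.64 and 20.12 TPM in wild-type, 23.36, 22.33 and 22.12 in heterozygous, and 27, 22.67 and 16.58 in homozygous hearts, with heterozygous above wild-type without overlap. *Igf2bp3* was at 10.05, 12.63 and 11.62 TPM in wild-type, 10.11, 8.98 and 11 in heterozygous, and 11.14, 10.47 and 9.47 in homozygous hearts. It was the only one of the 8 genes whose mean was lower in both mutant groups than in wild-type. After median-ratio scaling all 3 wild-type libraries (11.2 to 14.5 scaled TPM) were above the heterozygous (9.28 to 10.2) and homozygous ones (9.16 to 10.02), but the log2 change in homozygous hearts, -0.35, did not pass (limma, adjusted p = 0.136). The share of all genes that separated this way was not computed. With that scaling 229 genes passed in homozygous against wild-type hearts, 187 of them lower.

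In homozygous against wild-type hearts, none of the 8 genes passed the test (limma on log2(TPM + 1), Benjamini-Hochberg over 13682 genes, adjusted p under 0.05), against 0.336% of all genes. At an unadjusted p under 0.05, 1 of 8 was higher, against 22.9% of all genes, and 0 of 8 were higher without overlap, against 22.3%. Log2 changes were 0.31 ± 0.17 (SE) for *H19* (adjusted p = 0.274) and 0.32 ± 0.20 for *Igf2* (adjusted p = 0.321), with 95% intervals of -0.07 to 0.69 and -0.12 to 0.76. *Igf1r* had an unadjusted p of 0.0269 in limma, with a change of 0.45 ± 0.18 and an adjusted p of 0.157. *Igf2bp1* had the largest change of the 8, 0.72 ± 0.35 (adjusted p = 0.224). *Igf1* was at 0.40 (adjusted p = 0.257), *Igf2r* at 0.34 (adjusted p = 0.293), *Igf2bp2* at 0.12 (adjusted p = 0.623) and *Igf2bp3* at -0.13 (adjusted p = 0.550), all by limma. The median change of all genes tested was 0.23, with 81.7% of them above 0, and the median over the 8 genes was 0.33. After median-ratio scaling, which took the median of all genes to 0.02, *H19* was at 0.06 and *Igf2* at 0.08, and *Igf2bp2* was at -0.11.

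**Figure D2:**
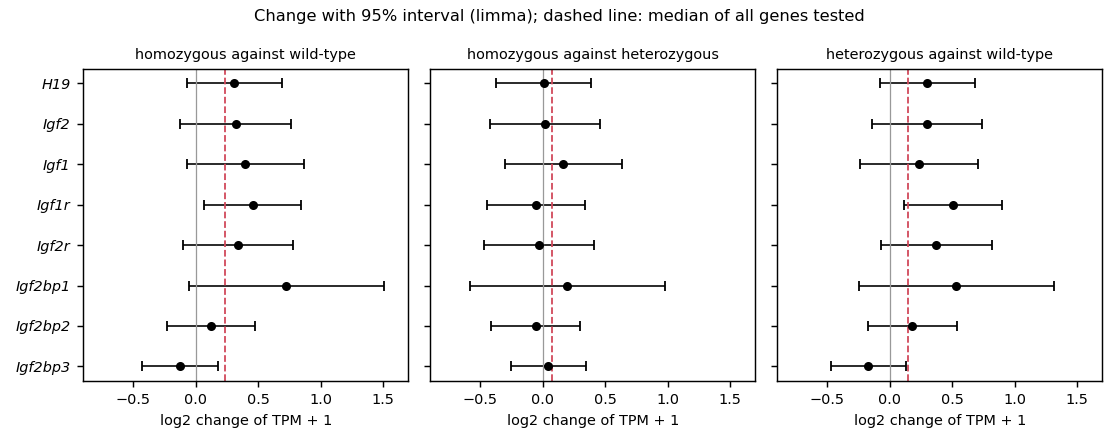
Log2 change of TPM + 1 of the 8 genes (x axis) in each of the 3 comparisons, as points with 95% intervals from limma; the dashed line is the median of all genes tested (0.23, 0.08 and 0.15 from left to right). Apart from *Igf1r* against wild-type in both mutant groups, each interval includes 0.

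In heterozygous against wild-type hearts, 0 of 8 passed (limma), against 0.0146% of all genes, and 1 of 8, *Igf1r*, was higher at an unadjusted p under 0.05, against 6.29%. *H19*, *Igf2* and *Igf2bp2* were higher in heterozygous hearts without overlap, 3 of 8 genes against 12.8% of all genes. Their log2 changes were 0.30, 0.30 and 0.18, and the median of all genes was 0.15. After median-ratio scaling all 3 overlapped between the groups, and their changes were 0.14, 0.13 and 0.02. *Igf1r* was at 0.51 ± 0.18 (limma, adjusted p = 0.672), *Igf2bp1* at 0.53, *Igf2r* at 0.37, *Igf1* at 0.23 and *Igf2bp3* at -0.17. The median over the 8 genes was 0.30. With *Xist* as a covariate it was 0.22, and the median of all genes was 0.19. Both comparisons with wild-type use the same wild-type libraries.

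In homozygous against heterozygous hearts, 0 of 8 passed (limma), against 0.0439% of all genes. At an unadjusted p under 0.05, 0 of 8 were higher, against 4.83%, and 0 of 8 were higher without overlap, against 12%. Log2 changes lay between -0.06 for *Igf2bp2* and 0.19 for *Igf2bp1*, with a median of 0.08 over all genes. For *H19* the change was 0.01, with a 95% interval of -0.37 to 0.39. The median over the 8 genes was 0.01. With *Xist* as a covariate it was 0.04, and the median of all genes was 0.04. Of all genes, 0 then passed, against 6 without the covariate.

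The outcome in homozygous against wild-type hearts turned on single libraries. Without homozygous replicate 3, the library with thymocyte markers, 2 of the 8 genes passed in limma: *H19* at 0.55 (adjusted p = 0.0377) and *Igf2* at 0.61 (adjusted p = 0.0167). In TPM, the remaining 2 homozygous libraries were then above all wild-type and all heterozygous libraries for *H19*, *Igf2* and *Igf1*. How many of all genes separated like this was not computed, so the separation is not read as particular to these genes. The same 2 libraries had the highest sums of the 9 for fibroblast and epicardial markers (1669 and 1684 TPM, next 1548) and for endothelial and endocardial markers (354 and 398 TPM, next 344), whose part in the result was not tested. The mean of these 2 libraries was 1.46 times the wild-type mean for *H19* and 1.53 times for *Igf2*. Without homozygous replicate 3, 247 genes of 13682 passed, 218 of them higher, against 46 with all libraries. The median change of all genes was then 0.28. After median-ratio scaling of all 9 libraries, the highest *H19* value was 2671 scaled TPM in homozygous and 2740 in heterozygous hearts. These 2 homozygous libraries were thus no longer above all heterozygous ones for *H19*. The fit without homozygous replicate 3 was not run with that scaling. Without wild-type replicate 3, the library with the lowest erythroid marker sum, *Igf1r* at 0.63 (limma, adjusted p = 0.0306) and *Igf2bp1* at 1.23 (adjusted p = 0.0175) passed instead, among 2170 genes. Without wild-type replicate 1, heterozygous replicate 1 and homozygous replicate 3 together, *H19* was at 0.55 (limma, adjusted p = 0.102) and *Igf2* at 0.61 (adjusted p = 0.110), changes as large as without homozygous replicate 3 alone, and none of the 8 passed with the 6 libraries left. With libraries weighted by limma's arrayWeights, 7 of 8 passed among 8755 genes, in an estimate that stopped before it converged, and 6 of 8 among 5068 genes by its gene-by-gene method, added after the data were seen. Both gave homozygous replicate 3 the lowest weight of the 9 libraries (0.20 and 0.26) and wild-type replicate 3 the next lowest (0.27 and 0.36). The first gave wild-type replicate 2 the highest weight, 8.54.

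**Figure D3:**
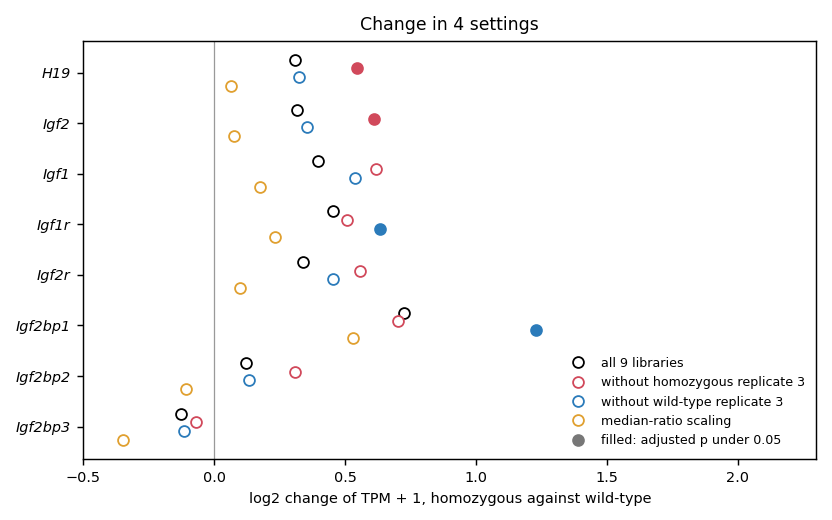
Log2 change of TPM + 1 in homozygous against wild-type hearts (x axis) for the 8 genes in 4 settings; filled points have an adjusted p under 0.05 in limma. Points are filled for *H19* and *Igf2* without homozygous replicate 3, and for *Igf1r* and *Igf2bp1* without wild-type replicate 3.

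The ratio of the TPM of 2 genes within a library does not depend on the scaling to a common total. The log2 ratios tested had 1 TPM added to each gene, so those of genes at low TPM can depend on that scaling. *H19* was 1.36, 1.39 and 1.32 times *Igf2* in wild-type, 1.45, 1.32 and 1.31 times in heterozygous, and 1.34, 1.25 and 1.45 times in homozygous hearts. The range was thus 1.25 to 1.45 in all 9 libraries, including homozygous replicate 3, in which both genes were lowest. Because the absolute level of *Igf2* is uncertain, so is the absolute level of this ratio. The mean log2 ratio was 0.43 ± 0.11 in homozygous, 0.44 ± 0.09 in heterozygous and 0.44 ± 0.04 in wild-type hearts (SD, n = 3). The difference was -0.01 for homozygous against wild-type (exact two-sided permutation, p = 0.9) and 0.003 for heterozygous against wild-type (exact permutation, p = 1). With 3 against 3 libraries the smallest possible p is 0.1, so this design could not pass 0.05, and the test does not show that the ratio was equal. *Igf1* to *Igf2*, *Igf2r* to *Igf1r* and *Igf2bp3* to *Igf2bp1* were tested likewise, and over the 12 tests no adjusted p was under 0.96 (exact permutation). The *Igf2bp3* to *Igf2bp1* ratio was 3.91 and 4.02 in wild-type replicates 1 and 2 and between 1.14 and 1.64 in the other 7 libraries.

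Across the 9 libraries *H19* and *Igf2* varied together, with Pearson's r = 0.976 (exact permutation, p = 5.51e-06, adjusted over 2 pairs 1.10e-05) and Spearman's rho = 0.983 (exact permutation, p = 4.96e-05, adjusted 9.92e-05). Without the 2 libraries farthest from the median of *H19*, homozygous replicates 1 and 2, r was 0.956. On deviations from the group means r was 0.969, and after median-ratio scaling 0.946. The libraries share the scaling of TPM and the markers of other tissues described above. *Igf2bp3* and *Igf2bp1* had r = -0.09 (exact permutation, p = 0.805) and rho = 0.12 (p = 0.776), with r = 0.35 without the 2 farthest libraries, 0.27 on deviations from the group means and -0.65 after median-ratio scaling, so that the sign depended on the setting.

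**Figure D4:**
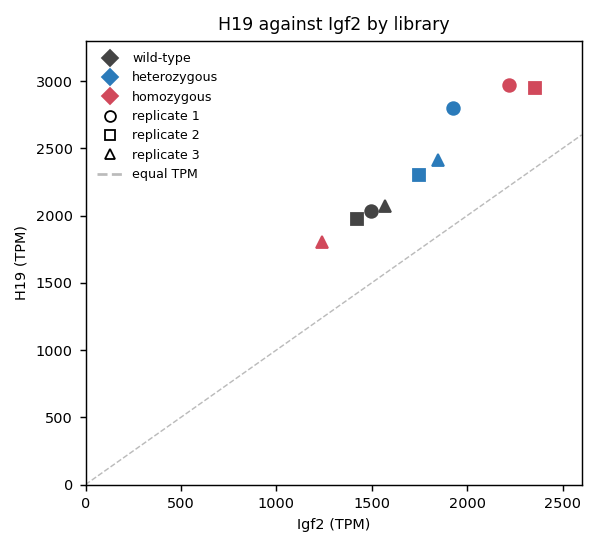
TPM of *H19* (y axis) against *Igf2* (x axis) in the 9 libraries, coloured by genotype and with a symbol for each replicate; the dashed line marks equal TPM. All 9 libraries lie above the line, and homozygous replicate 3 lies at the lower end and homozygous replicates 1 and 2 at the upper end.

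Likeness to *H19* was measured as Pearson's r of log2(TPM + 1) over the 9 libraries, against 9951 genes averaging 5 TPM or more. *Igf2* was the gene most like *H19*, followed by *Csnk1e* (r = 0.976) and *Orai3* (r = 0.973). After median-ratio scaling *Igf2* still ranked first. Most like *Igf2* were *Mospd2* (r = 0.993), *Mgst3* (r = 0.980) and *Ramp2* (r = 0.976), with *H19* at rank 5. Of the other 6 members, *Igf2bp2* (r = 0.888) and *Igf1* (r = 0.858) were closest to *H19*, at ranks 192 and 345 of the 9951 genes.

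The genes around the pair were read from a list of 26 neighbours on chromosome 7, of which 20 were tested. The list reaches 1021946 bases from the pair, with *Kcnq1* at 439546 and *Cdkn1c* at 791523. In homozygous against wild-type hearts none passed (limma), 6 of 20 were higher at an unadjusted p under 0.05, against 22.9% of all genes, and the median change of the 20 was 0.28, beside 0.23 for all genes. *Cdkn1c*, a maternally expressed inhibitor of cyclin-dependent kinases, was at 110.57, 88.02 and 83.74 TPM in wild-type and 176.92, 176.56 and 108.19 in homozygous hearts, with a log2 change of 0.68 ± 0.20 (limma, adjusted p = 0.115). *Lsp1*, a leukocyte actin-binding protein, was at 0.52, with its highest level, 72.02 TPM, in homozygous replicate 3. *Mrpl23*, a mitochondrial ribosomal protein gene beside *H19*, was at -0.05, and the potassium channel gene *Kcnq1* at -0.13.

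Around *Igf2r*, 11 of the 12 listed neighbours were in the table and 9 were tested, of which none passed in any comparison (limma). In homozygous against wild-type hearts 2 of 9 were higher at an unadjusted p under 0.05, against 22.9% of all genes. The median change was 0.06, beside 0.23 for all genes. *Airn* was at 51.15, 48.73 and 47.01 TPM in wild-type, 60.55, 64.33 and 50.72 in heterozygous and 69.15, 59.74 and 61.95 in homozygous hearts. The homozygous libraries were all above the wild-type ones, as in 22.3% of all genes, with a log2 change of 0.37 ± 0.12 (limma, adjusted p = 0.126). The mean change of *Igf2r* was 0.34, but its homozygous and wild-type libraries overlapped. *Wtap*, part of the m6A methyltransferase complex, was at 0.35, while *Sod2* (mitochondrial superoxide dismutase) was at -0.04 and *Mrpl18* at -0.01.

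Downstream of the receptors, 34 of 36 listed signalling genes were tested. None passed in homozygous against wild-type hearts (limma), and 6 of 34 were higher and 1 lower at an unadjusted p under 0.05, with 22.9% of all genes higher. Of all 13682 genes, 3426 were under that threshold in either direction, 3131 of them higher. The median change of the 34 was 0.22, beside 0.23 for all genes. The lower gene was *Irs2*, an adaptor of the insulin and IGF1 receptors, at 13.42, 19.66 and 5.67 TPM in wild-type, 3.94, 7.11 and 5.50 in heterozygous and 3.74, 5.40 and 5 in homozygous hearts. Wild-type replicates 1 and 2 stood above all others, and wild-type replicate 3 was within the range of the mutants. The change was -1.15 ± 0.36 (limma, adjusted p = 0.121). *Pik3r1*, the regulatory subunit of PI3-kinase, was at 0.66 (limma, adjusted p = 0.0961) and *Rictor*, of the mTOR complex that phosphorylates AKT, at 0.68 (adjusted p = 0.107), each with all homozygous above all wild-type libraries. This held for 6 of the 34 genes, against 22.3% of all genes. *Map2k1* was at -0.06.

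Of the 14 IGF-binding proteins and their regulators, 12 were tested and none passed (limma). In homozygous against wild-type hearts 2 of 12 were higher and 1 lower at an unadjusted p under 0.05, with 22.9% of all genes higher. Of all 13682 genes, 3426 were under that threshold in either direction, 3131 of them higher. The median change of the 12 was 0.16, beside 0.23 for all genes. *Igfbp3* and *Igfbp4*, which bind IGFs outside the cell, were at 0.51 and 0.54 in homozygous against wild-type hearts. *Igfbp4* had 154.5, 185.91 and 82.89 TPM in homozygous hearts, with replicate 3 again lowest. *Igfbp6* was at -0.09 and the protease gene *Htra1* at -0.10. The lower gene was *Igfbpl1*, named after its values were seen because its level was under the 5 TPM needed for naming. It averaged 4.29 TPM in wild-type, 3.59 in heterozygous and 1.99 in homozygous hearts, with all homozygous libraries below all others and a change from wild-type of -0.82 ± 0.18 (limma, adjusted p = 0.0882). How many of all genes were lower without overlap was not computed. All 10 genes of the mannose 6-phosphate pathway, through which IGF2R sorts lysosomal enzymes, were tested, and none passed (limma). In homozygous against wild-type hearts 3 of 10 were higher at an unadjusted p under 0.05, against 22.9% of all genes. Their median was 0.23, beside 0.23 for all genes. *Gga3*, a sorting adaptor, had 14.8, 14.48 and 52.2 TPM in homozygous hearts and a change of 1.04, and *Nagpa*, which uncovers the mannose 6-phosphate tag, had a change of 0.55. *Vps35* and *Vps29*, of the retromer, were both at 0.05.

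Among partners of the IGF2BP proteins and m6A factors, 14 of 16 were tested and none passed (limma). In homozygous against wild-type hearts 6 of 14 were higher at an unadjusted p under 0.05, against 22.9% of all genes. The median was 0.29, beside 0.23 for all genes. *Hmga1*, a chromatin protein gene, was at 89.42, 83.66 and 137.38 TPM in homozygous hearts, highest in replicate 3, with a change of 0.53, and *Mettl14*, of the m6A methyltransferase, was at 0.55. *Mettl3* was at 0.14 and *Dis3l2*, a 3′ exonuclease, at 0.15. All 8 factors that act at imprinting control regions were tested and none passed (limma). In homozygous against wild-type hearts 4 of 8 were higher at an unadjusted p under 0.05, against 22.9% of all genes. Their median was 0.35, beside 0.23 for all genes. *Plagl1*, an imprinted zinc-finger gene, was at 280.25, 319.71 and 173.68 TPM in homozygous hearts (change 0.53), *Uhrf1* was at 0.39, *Dnmt3a* at 0.20 and *Zfp57* at 0.19.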

How the data were processed

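The 9 heart libraries were sequenced after poly-A capture. Per the study's methods and the submitters' processing notes, the authors trimmed reads with Trim Galore, aligned them to mm10 with STAR and estimated expression with RSEM. Annotation release and strand use are not given in the sources used here. The authors deposited TPM, which sum to 999100 to 999245 per library and keep no depth, so precision comes from 3 libraries per group. The study tested counts with DESeq2, which TPM do not allow.

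Groups came from library titles. Of 24597 symbols, 26 turned into dates were left out. Genes averaging 1 TPM or more were fitted as log2(TPM + 1) with limma (v3.58.1; trend, all 9 libraries, no covariates) in R (v4.3.3), with two-sided p adjusted by Benjamini-Hochberg within each comparison. The procedure was tested on simulated data. Ratios and correlations used exact permutation. Coordinates came from GENCODE M21 (GRCm38). Alternatives covered pseudocounts, filters, scaling, library weights, an *Xist* covariate, the replicate block and leaving out libraries. Named genes were the 8 members and *Ctcf*, in each list the 2 highest and 2 lowest changes in homozygous against wild-type hearts among genes averaging 5 TPM or more, and the 3 genes most like *H19* and *Igf2*. Members and lists were chosen with earlier results of these data known.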

Additional observations from a re-analysis of the deposited data

How the results depend on the processing

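TPM keep no depth, so 3 libraries per group set the precision, and the calls on *H19*, *Igf2*, *Igf1r* and *Igf2bp1* depended on which libraries entered. Pseudocounts of 0.1 and 5, either filter on low values, a fit of the 2 compared groups alone and an *Xist* covariate left 0 of 8 genes called in each comparison. Of the members' log2 changes under all alternatives, 449 kept direction and side of the threshold, 23 came to pass it and 32 changed sign, mostly in homozygous against heterozygous hearts, where changes were near 0. The cause was not tested.

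With the replicate number as a block, 0 of 8 genes were called in each comparison, and calls over all genes were 17 for homozygous against wild-type (46 without the block), 1 for homozygous against heterozygous (6) and 1 for heterozygous against wild-type (2). Deviations of same-numbered libraries correlated at -0.03 to 0.36, and not every library correlated best with its own number, so the number was not taken as a pairing.

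In homozygous against wild-type hearts 7 of 8 genes were called with arrayWeights, and in heterozygous against wild-type hearts 6. These weights were estimated by REML, which stopped before it converged. The gene-by-gene method, chosen after seeing the data and the values of both, called 6 and 0. Leaving out single libraries gave 0 to 2 genes called in homozygous against wild-type hearts, and 0 in the other comparisons.

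In homozygous against wild-type hearts *Igf2bp2* was at -0.11 after median-ratio scaling and -0.11 after quantile normalization, and at -0.029 to 0.31 with single libraries left out. The remaining changes of sign were in homozygous against heterozygous hearts. Median-ratio scaling gave -0.072 for *H19*, -0.059 for *Igf2* and -0.027 for *Igf2bp3*, and quantile normalization -0.059 for *Igf2bp3*. arrayWeights gave 0.065 for *Igf1r*, 0.13 for *Igf2r* and 0.16 for *Igf2bp2*, and its gene-by-gene method 0.034, 0.13 and 0.12. The *Xist* covariate gave -0.17 for *Igf2bp1* and 0.066 for *Igf2bp2*. Without the 3 libraries with markers of other organs, chosen after seeing the data, *Igf2r* was at 0.097 and *Igf2bp2* at 0.15. Leaving out single libraries gave -0.12 to 0.25 for *H19*, -0.15 to 0.31 for *Igf2*, -0.015 to 0.38 for *Igf1*, -0.17 to 0.015 for *Igf1r*, -0.20 to 0.18 for *Igf2r*, -0.21 to 0.13 for *Igf2bp2* and -0.026 to 0.11 for *Igf2bp3*.

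The differences in log2 ratio also changed sign near 0. Without the 3 libraries, *H19* to *Igf2* was at -0.045 for heterozygous against wild-type, *Igf1* to *Igf2* at -0.084 and *Igf2r* to *Igf1r* at 0.026 for homozygous against wild-type. With single libraries left out, *H19* to *Igf2* ran from -0.066 to 0.043 for homozygous against wild-type, from -0.068 to 0.040 for homozygous against heterozygous and from -0.047 to 0.030 for heterozygous against wild-type. *Igf1* to *Igf2* ran from -0.013 to 0.18 for homozygous and from -0.16 to 0.041 for heterozygous against wild-type. *Igf2r* to *Igf1r* ran from -0.27 to 0.047 for homozygous against wild-type and from -0.13 to 0.18 for homozygous against heterozygous. The correlation of *Igf2bp3* with *Igf2bp1* was -0.65 after median-ratio scaling, 0.27 on deviations from group means and -0.30 to 0.40 with single libraries left out.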
